A study of Mus musculus with 15 samples.

Results

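Re-expression of the histone demethylase JMJD1A in knockdown cells was followed across all genes in 6 RNA-seq libraries, chosen from the 15 of the series by their sample titles. The cells were 3T3-L1, mouse preadipocytes that store fat once a hormone cocktail is given. All 6 libraries came from JMJD1A-KD (sh-Jmjd1a) cells, which stably carried a retroviral short hairpin RNA against Jmjd1a, the gene now named Kdm3a. A further retrovirus was then introduced and the cells were selected with antibiotic. It encoded LacZ, a bacterial beta-galactosidase, in the 3 control libraries, and JMJD1A(WT), the normal enzyme with a silent change that protects it from the hairpin, in the other 3. All cells were induced with insulin, dexamethasone and IBMX, and RNA was taken on day 2 of differentiation. The vector, not the endogenous promoter, drove JMJD1A(WT), and the number of infected pools behind each line is not given in the sources used here. The replicates are not stated to come from separate cultures, so p-values measure only the spread between libraries, which may be technical. That spread was estimated together with 3 libraries of JMJD1A-KD cells given JMJD1A(H1122A), a mutant defective in iron coordination. Calls are also set beside the knockdown itself, in 3 libraries of sh-Empty cells, whose retrovirus expressed no hairpin, and 3 of sh-Jmjd1a cells, also on day 2. The main comparison, JMJD1A(WT) against LacZ, asks which transcripts are raised or lowered when the enzyme is expressed from the vector.

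JMJD1A removes methyl groups from lysine 9 of histone H3, a mark found at silenced genes, and needs iron and 2-oxoglutarate to do so. In 3T3-L1 cells, C/EBP-beta and C/EBP-delta are induced soon after the cocktail and turn on PPAR-gamma and C/EBP-alpha, which then maintain each other. Both factors switch on genes of lipid uptake, triglyceride storage, lipolysis and adipokine secretion. Preadipocyte programs, among them TGF-beta and Wnt signals and the contractile cytoskeleton, are known to decline as the cells round up and fill with lipid.

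Total counts were 14104133 to 15046646 per library with LacZ and 12673417 to 25523148 with JMJD1A(WT), where replicate 3 was the deepest. Levels are given as CPM, counts scaled to a common library size after TMM normalization, and differences as log2 fold changes of JMJD1A(WT) over LacZ. The leading principal component, with 39.8% of the variance, placed the LacZ libraries at -17.3 to -14.5 and the JMJD1A(WT) libraries at 12.7 to 17.9. The labelled cell type was borne out by its markers, since the 6 fibroblast line markers (Col1a1, Col1a2, Pdgfra, Pdgfrb, Thy1 and Prrx1) summed to 11400 to 12290 CPM and were each above 1 CPM. Defining markers of muscle, endothelial, epithelial and immune cells were near 0, while those of neurons were not. The 5 skeletal muscle markers summed to at most 0.469 CPM, the 5 endothelial markers to at most 1.54 CPM and the 5 epithelial markers to at most 1.62 CPM in any of the 6 libraries. The 7 immune cell markers summed to 0.990 to 2.07 CPM with LacZ and 2.06 to 2.74 CPM with JMJD1A(WT), and 4 of them had no count in any of the 6. The 4 neuronal markers summed to 27.8 to 31.9 CPM, of which 2 passed the low-count filter and neither was called.

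Kdm3a, the targeted and reintroduced gene, was measured at 122, 116 and 118 CPM in the LacZ libraries and 1768, 1639 and 1662 CPM in the JMJD1A(WT) libraries. The groups were far apart, and the 3 libraries of each differed little among themselves. The level was 14.2-fold higher, a log2 fold change of 3.83, which sets these libraries apart from LacZ. JMJD1A(H1122A) libraries had 2288, 2199 and 2103 CPM, so this level cannot tell JMJD1A(WT) from the mutant. Reads of the construct and of the endogenous transcript cannot be told apart in these counts, so the endogenous level with JMJD1A(WT) is not known. In the knockdown set, scaled apart, Kdm3a averaged 176.5 CPM in sh-Empty and 131.7 CPM in sh-Jmjd1a cells, a log2 fold change of -0.42. The mean of 1690 CPM with JMJD1A(WT) was far above that of sh-Empty cells, so the RNA was in excess and not restored to its control level.

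Of 12557 genes tested, 625 rose and 568 fell with JMJD1A(WT) at an adjusted p under 0.05 (quasi-likelihood test of edgeR, Benjamini-Hochberg adjustment), which is 9.5% of the genes tested, 4.98% upward and 4.52% downward. LacZ and JMJD1A(WT) values were fully separate in 1135 of 1193 called genes, beside 22.9% of the genes tested. The changes upward were larger. Called genes had a median log2 fold change of 0.451 upward and -0.235 downward, against -0.000143 over all genes tested, and 510 of the 568 genes that fell did so by less than 0.5. The genes that rose had a median level of 34.9 CPM and those that fell of 94.9 CPM, beside 29.4 CPM over all genes tested. With the genes split by level into 4 equal bins, 170 rose and 36 fell in the lowest bin, up to 8.38 CPM, and 193 rose and 341 fell in the highest, from 73.5 CPM. The smallest change that was called depends on the level, because the median standard error was 0.266 in the lowest bin and 0.0485 in the highest.

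**Figure D1:**
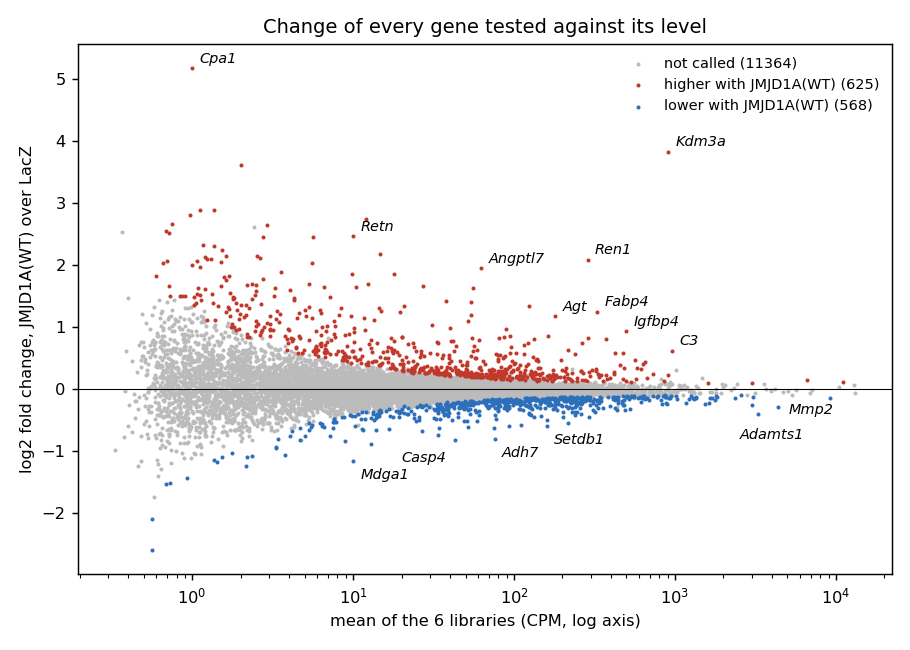
Each point is a gene tested, with the mean CPM of the 6 libraries on a log axis and the log2 fold change of JMJD1A(WT) over LacZ on the vertical axis. Red points (625 genes) were called higher, blue points (568 genes) lower and grey points were not called. Kdm3a stands alone at high level and Ren1 lies next below it among genes with a mean of 100 CPM or more, while the abundant genes that fell lie close to 0.

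At a mean level of 100 CPM or more, the largest increase other than that of Kdm3a was in Ren1, which encodes renin, the protease that cuts angiotensinogen. Ren1 was measured at 107, 109 and 109.9 CPM with LacZ and 465, 489.9 and 437 CPM with JMJD1A(WT), so every JMJD1A(WT) library was above every LacZ library by a wide margin. It rose 4.26-fold, and the log2 fold change was 2.09 (standard error 0.046, edgeR adjusted p = 4.61e-34). The gene lies at chr1:135247087-135256902 (plus strand) of mm9, and some mouse strains carry a near-identical copy, Ren2, whose reads could be counted with it. Agt, which encodes angiotensinogen, the substrate of renin, had 109, 108 and 113 CPM with LacZ and 264, 264 and 227 CPM with JMJD1A(WT). It lies at chr8:127080434-127093606 (minus strand) and rose 2.27-fold, by 1.18 (standard error 0.051, edgeR adjusted p = 3.39e-21), and its groups did not overlap. Agtr2, an angiotensin receptor chosen here after its values were seen, went the other way, from 47.2, 49.9 and 48.4 CPM to 32.7, 35.3 and 34.4 CPM, a log2 fold change of -0.50 (standard error 0.069, edgeR adjusted p = 3.63e-07). Agtr1a, the other angiotensin receptor examined, had 0 counts in all 6 libraries, and Ace, the converting enzyme, had 1 to 2 counts with LacZ and 7 to 13 with JMJD1A(WT), too few to be tested.

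Large increases at lower levels, with a mean of 5 CPM or more, were in genes of diverse roles. Retn, which encodes the adipokine resistin, rose from 2.93, 3.12 and 2.97 CPM to 17.4, 18.4 and 15.3 CPM, and Cmklr1, a receptor for the adipokine chemerin, from 1.87, 1.42 and 1.98 CPM to 9.40, 8.68 and 10.5 CPM. Their log2 fold changes were 2.47 (standard error 0.16) and 2.46 (standard error 0.21). Groups without overlap were a condition of naming both. Angptl7, a secreted angiopoietin-like protein, was more abundant and moved as clearly, from 25.0, 27.9 and 23.4 CPM to 99.9, 109 and 90.2 CPM, and its log2 fold change was 1.96 (standard error 0.073, edgeR adjusted p = 8.98e-25). Cyp2f2 (a cytochrome P450), Ephx2 (soluble epoxide hydrolase), Ltc4s (leukotriene C4 synthase), Slpi and Wfdc12 (both with a WAP domain, as in secreted protease inhibitors) and Des (desmin, an intermediate filament protein of muscle) rose by 1.69 to 2.18 on the log2 scale. Of the 5 skeletal muscle markers, 3 had no count in any of the 6 libraries, and the list summed to 0 to 0.0707 CPM with LacZ and 0.220 to 0.469 CPM with JMJD1A(WT), without overlap. The part of muscle-type cells in the value of Des was not tested.

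Some genes with few counts also rose. Cpa1, which encodes the pancreatic digestive enzyme carboxypeptidase A1 and was chosen after its values were seen, had 1, 1 and 0 counts with LacZ and 23, 27 and 53 with JMJD1A(WT). Slc2a4, the insulin-responsive glucose transporter GLUT4, had 0.400, 0.283 and 0.495 CPM with LacZ and 1.98, 3.13 and 0.933 CPM with JMJD1A(WT), a log2 fold change of 2.13 (standard error 0.52, edgeR adjusted p = 0.00422). Igf2, a fetal growth factor, and H19, the noncoding RNA beside it in the same imprinted cluster, were also chosen after their values were seen. Igf2 went from 1.27, 0.637 and 0.424 CPM to 4.63, 5.94 and 4.70 CPM and H19 from 7.93, 8.57 and 8.56 CPM to 22.0, 19.8 and 20.3 CPM, and the groups of neither overlapped. The log2 fold changes were 2.66 (standard error 0.31, edgeR adjusted p = 6.5e-09) for Igf2 and 1.31 (standard error 0.11, edgeR adjusted p = 3.93e-12) for H19. The macrophage genes Cd163, Siglec1 and F13a1, likewise chosen after their values were seen, rose by 2.32, 2.25 and 2.89 on the log2 scale at levels of at most 2.65 CPM. Of the immune marker list, Cd68 alone passed the low-count filter and was not called, at 1.73, 0.850 and 0.707 CPM with LacZ and 1.54, 2.27 and 1.75 CPM with JMJD1A(WT), and the part of immune cells in these values was not tested.

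The transcription factors of the adipogenic cascade moved unequally. Of 24 tested, 5 rose and 3 fell, and their median log2 fold change was -0.0336. Here and for each gene list below, the counts stand beside 4.98% of all genes tested that rose and 4.52% that fell. Cebpa, which encodes C/EBP-alpha, had 101, 92.8 and 97.2 CPM with LacZ and 175, 171 and 166 CPM with JMJD1A(WT). The groups were clearly separate and the increase was 1.75-fold, a log2 fold change of 0.81 (standard error 0.051, edgeR adjusted p = 8e-17). Pparg, which encodes PPAR-gamma, had 75.8, 69.8 and 71.8 CPM and 94.8, 97.2 and 87.9 CPM, without overlap, and rose less, by 0.36 (standard error 0.056, edgeR adjusted p = 7.62e-06). Srebf1, a regulator of fatty acid synthesis genes, rose by 0.21 (standard error 0.045), and Nr1h3, the oxysterol receptor LXR-alpha, by 0.58 (standard error 0.15, edgeR adjusted p = 0.00609). The call for Nr1h3 was lost without LacZ replicate 3, where its edgeR adjusted p was 0.0682. Upstream in the cascade, Cebpb, which encodes C/EBP-beta, ranged from 344 to 565 CPM with LacZ and from 361 to 437 CPM with JMJD1A(WT), so the groups overlapped and no difference was called (edgeR adjusted p = 0.534, and 0.0417 without robust dispersions). Klf4, an early factor that acts on Cebpb, fell from 46.6, 53.0 and 50.3 CPM to 42.2, 39.2 and 40.9 CPM, a log2 fold change of -0.29 (standard error 0.069). The 3 that fell became 1 without JMJD1A(WT) replicate 2 or LacZ replicate 3, and 2 without LacZ replicate 1 or 2.

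All 8 adipocyte markers chosen for the cell type check rose with JMJD1A(WT), and in bulk RNA more cells that had started to differentiate and more RNA per cell cannot be told apart. Fabp4, the adipocyte fatty acid chaperone, was at 191, 187 and 202 CPM with LacZ and 483, 473 and 427 CPM with JMJD1A(WT). It was 2.38-fold higher, by a log2 fold change of 1.25 (standard error 0.046, edgeR adjusted p = 4.3e-23), and the groups did not overlap. Adipoq, which encodes adiponectin, was low on day 2 but had 9.80, 9.70 and 6.43 CPM and 22.5, 22.2 and 18.9 CPM, a log2 fold change of 1.26 (standard error 0.13, edgeR adjusted p = 1.93e-10). Lpl, lipoprotein lipase, was already abundant and rose least of the 8, from 2908 ± 41.0 to 3122 ± 144 CPM (SD, n = 3). Its log2 fold change of 0.10 (edgeR adjusted p = 0.0377) lost the call by DESeq2, without robust dispersions and on leaving out any library other than JMJD1A(WT) replicate 3, with an edgeR adjusted p up to 0.203.

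Lipid droplet genes rose in 5 of 13 tested cases and fell in none, with a median log2 fold change of 0.145. Cidec, which drives the fusion of lipid droplets, had 29.5, 27.5 and 31.1 CPM with LacZ and 81.4, 77.7 and 74.7 CPM with JMJD1A(WT), a gap many times the spread within either group. Its log2 fold change was 1.40 (standard error 0.069, edgeR adjusted p = 1.66e-20). The droplet coat genes Plin4 and Plin1 rose by 0.85 (standard error 0.058) and 0.50 (standard error 0.064) on the log2 scale.

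Fatty acid uptake and binding genes rose in 9 of 18 and fell in 2, with a median of 0.137. Besides Fabp4, Cavin2, a coat protein of the caveolae of the plasma membrane, rose from 20.1 ± 1.33 to 42.1 ± 5.41 CPM (SD, n = 3). Acsl1, which couples incoming fatty acids to coenzyme A, rose from 339.6 ± 11.7 to 509 ± 37.8 CPM (SD, n = 3), and Cd36, a fatty acid transporter, rose by 0.48 (standard error 0.06) as a log2 fold change. Vldlr, a lipoprotein receptor, and Cav1, the main structural protein of caveolae, fell. Vldlr had 198, 199 and 199 CPM with LacZ and 158, 154 and 166 CPM with JMJD1A(WT), and Cav1 fell from 1393, 1358 and 1416 CPM to 1220, 1296 and 1223 CPM.

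Triglyceride synthesis genes rose in 7 of 19 and fell in 1, with a median of 0.163, and the 1 decrease was lost whichever library was left out. Dgat2, which adds the last acyl chain, had 30.0, 37.5 and 31.2 CPM with LacZ and 78.2, 75.2 and 74.0 CPM with JMJD1A(WT), a 2.30-fold increase whose log2 fold change was 1.20 (standard error 0.072, edgeR adjusted p = 1.72e-17). Agpat2, which makes phosphatidic acid, rose 1.98-fold, and Gpd1, which supplies glycerol phosphate, 2.41-fold. Agpat2 overlaps exons of Egfl7 on the opposite strand, and whether the counting used strand is not given in the sources used here. The same limit holds for Srebf1 (with Rai1), Plin4 (Hdgfrp2), Elovl1 (Cdc20), Crat (Dolpp1), Zyx (Epha1), Cebpb (Tmem189) and Igf2 (Igf2as). Unnamed transcripts overlap Lipe, Gpd1, Egr1, Notch1, Ace, Cyp2f2, Des, Ltc4s and Wfdc12 in the same way. They also overlap Col1a1, Fbn1, Tnc, Sparcl1, Nid2, Jund and Kdm3b. Trf (with Srprb), Nr1h3 and H19 share exons with another entry on the same strand. Lipolysis genes rose in 5 of 10 with a median of 0.249, led by Lipe, hormone-sensitive lipase. Lipe had 92.0 ± 4.25 and 138 ± 7.67 CPM (SD, n = 3), and its log2 fold change was 0.57 (standard error 0.051, edgeR adjusted p = 5.96e-12). The 5 were Lipe, Pde3b, Aifm2, Prkar2b and Pnpla2, so the list is not one of lipases alone. Dgat2, of triglyceride synthesis, and the lipase Lipe were higher in the same libraries.

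Fatty acid synthesis and desaturation genes rose in 8 of 25 and fell in 1 (2 without LacZ replicate 3), with a median of 0.0889. Scd1, the desaturase that makes oleate, had 189.6, 189 and 198 CPM with LacZ and 301, 300.2 and 259.9 CPM with JMJD1A(WT), and its log2 fold change was 0.57 (standard error 0.048, edgeR adjusted p = 1.37e-11). Taldo1, an enzyme of the pentose phosphate pathway, and Elovl1, an elongase, rose by 0.32 and 0.25. Fasn, the fatty acid synthase itself, had 858, 714 and 755 CPM and 893, 825 and 875 CPM, where the groups overlapped, and was not called (edgeR adjusted p = 0.0869). Without LacZ replicate 1 it was called, at an edgeR adjusted p of 1.2e-05. Elovl5, the elongase of polyunsaturated fatty acids, fell from 132, 145 and 138 CPM to 109, 112 and 116 CPM, a log2 fold change of -0.29 (standard error 0.047, edgeR adjusted p = 9.59e-06).

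Cholesterol synthesis and uptake genes rose in 7 of 26 and fell in none, with a median of 0.13, and 21 of the 26 had a positive fold change. Cyp51, which demethylates lanosterol, had 67.8, 65.6 and 64.6 CPM with LacZ and 96.5, 104 and 91.9 CPM with JMJD1A(WT). Its log2 fold change was 0.55 (standard error 0.06, edgeR adjusted p = 1.72e-09). Insig1, the sterol sensor of the endoplasmic reticulum, had 38.6, 40.4 and 37.8 CPM and 53.6, 55.8 and 51.4 CPM and rose by 0.45 (standard error 0.069).

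Adipokines and their receptors held the highest share of genes that rose of the 34 lists, 10 of 15 with none that fell and a median of 0.62. The list includes Retn, Cmklr1, Adipoq and Agt, described above, and C3, complement component 3, which was chosen after its values were seen. C3 is among the abundant transcripts, at 768, 748 and 761 CPM with LacZ and 1217, 1165 and 1121 CPM with JMJD1A(WT), and it rose by 0.62 (standard error 0.035, edgeR adjusted p = 1.88e-18). Lcn2, the siderophore-binding lipocalin, had 103, 119.5 and 121 CPM and 157, 162 and 156 CPM, a log2 fold change of 0.47 (standard error 0.05).

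**Figure D2:**
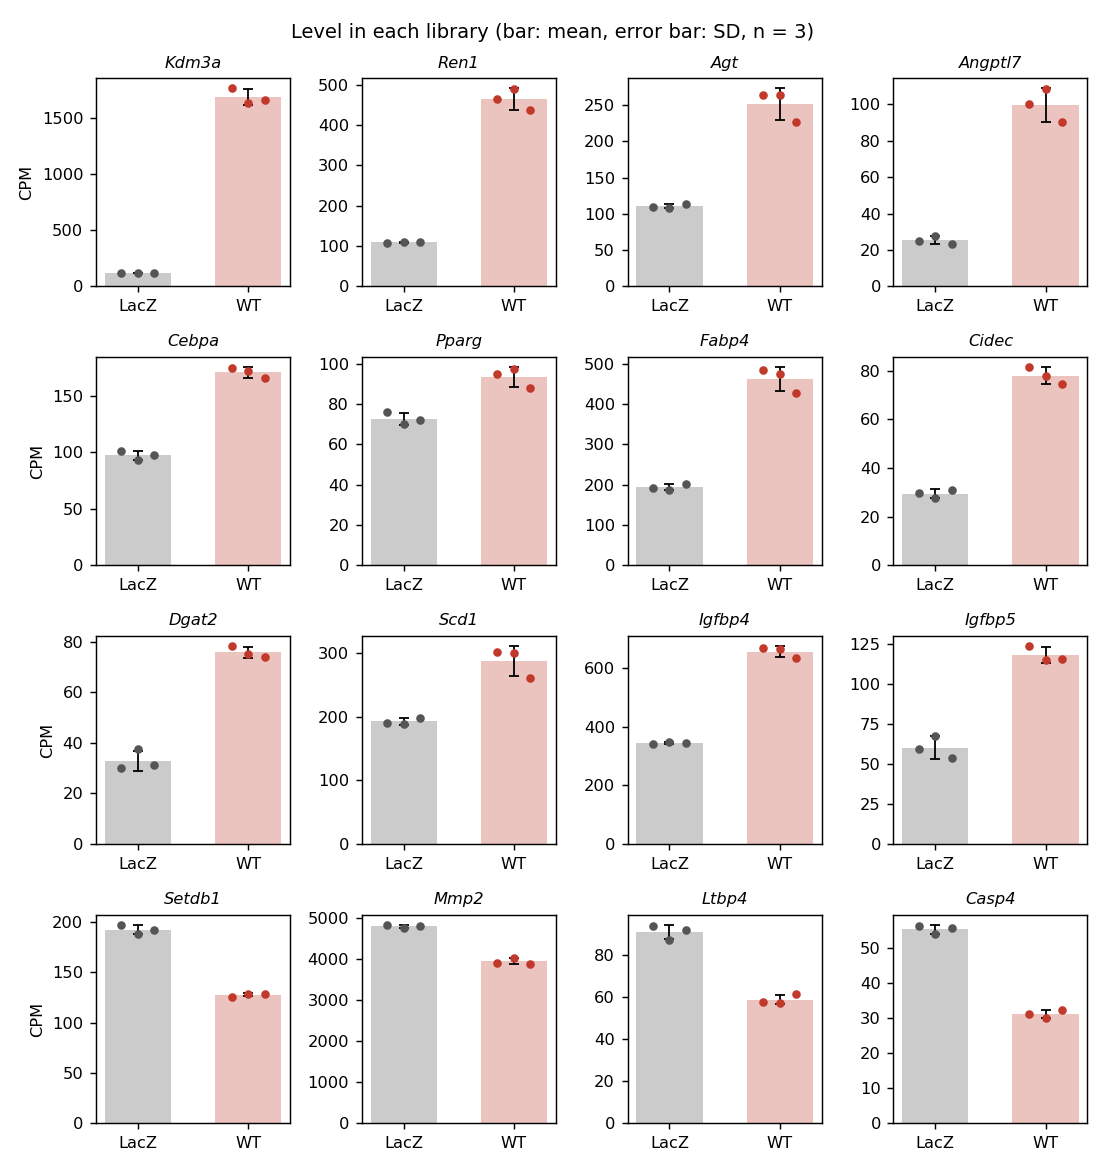
Each panel shows a gene's CPM in the 3 LacZ libraries (grey) and the 3 JMJD1A(WT) libraries (red), with points for libraries, bars for means and error bars for SD. In all 16 panels the points of the groups do not overlap, which was a condition for genes named by size of change or from a list. The lower row holds genes that fell, from Mmp2 at 3882 to 4819 CPM to Casp4 at 29.9 to 56.4 CPM.

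Fatty acid oxidation genes rose in 6 of 23, with a median of 0.118, and included Crat, carnitine acetyltransferase, at 87.2, 95.9 and 98.2 CPM with LacZ and 131, 123 and 117 CPM with JMJD1A(WT). Acadm, medium-chain acyl-CoA dehydrogenase, rose by 0.30 (standard error 0.047) as a log2 fold change. The count of 6 fell to 4 without JMJD1A(WT) replicate 2, to 4 without LacZ replicate 1 and to 3 without LacZ replicate 2. Citric acid cycle and pyruvate entry genes rose in 4 of 29 (median 0.0674), with Pcx, pyruvate carboxylase, at 668 ± 22.9 and 791 ± 28.1 CPM (SD, n = 3) and Idh1, the cytosolic isocitrate dehydrogenase, higher by 0.34 (standard error 0.039). Of 45 respiratory chain subunits, 2 rose and none fell, with a median of -2.87e-05. That is 4.44% and 0%, beside 4.98% and 4.52% of all genes tested. The 2 became 0 without JMJD1A(WT) replicate 2 and 1 without any other library but JMJD1A(WT) replicate 3. Branched-chain amino acid breakdown genes rose in 2 of 22 (9.09%, median 0.064) and insulin signaling genes in 3 of 19 (15.8%, median 0.0683). The branched-chain count became 1 without JMJD1A(WT) replicate 1 or 3 or LacZ replicate 1 or 2. Of 7 thermogenic genes 3 rose and 1 fell, with a median of 0.0757, and the decrease was lost without JMJD1A(WT) replicate 3 or LacZ replicate 1.

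Genes of the growth factor and preadipocyte lists moved in both directions. Igfbp4, a secreted binding protein that holds back IGFs, had 340.3, 347 and 343 CPM with LacZ and 668, 665 and 634 CPM with JMJD1A(WT), nearly without spread, and rose 1.91-fold, its log2 fold change being 0.93 (standard error 0.038, edgeR adjusted p = 2.34e-23). Igfbp5, a related binding protein, had 59.6, 67.5 and 53.5 CPM and 124, 115 and 116 CPM, a log2 fold change of 0.97 (standard error 0.061, edgeR adjusted p = 9.1e-17). In the IGF system list 4 of 13 rose and 2 fell (median 0.207), and the 2 became 0 without JMJD1A(WT) replicate 2 and 1 without LacZ replicate 1. Of 27 preadipocyte and commitment genes, 5 rose and 5 fell (median -0.0344). Dlk1, the membrane protein known as preadipocyte factor and usually lost in differentiation, was higher, at 569, 551 and 550.2 CPM and 760.4, 760.1 and 735 CPM, a log2 fold change of 0.43 (standard error 0.036, edgeR adjusted p = 6.9e-13). Ly6a, which encodes the stem cell antigen Sca-1, and Zfp423, a zinc finger factor of preadipocyte commitment, rose 2.37-fold and 1.80-fold. Cd24a and Cd44, surface proteins of progenitor cells, fell, with log2 fold changes of -0.84 (standard error 0.15) and -0.38 (standard error 0.039).

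Signaling genes of the TGF-beta and BMP pathway were among the lists with the most decreases. Of 35 tested, 12 fell and 1 rose, beside 4.52% and 4.98% of all genes, with a median log2 fold change of -0.141. Ltbp4, which anchors latent TGF-beta in the matrix, had 93.7, 87.0 and 91.7 CPM with LacZ and 57.8, 57.1 and 61.3 CPM with JMJD1A(WT), and its groups were well apart. Its log2 fold change was -0.62 (standard error 0.056, edgeR adjusted p = 7.32e-12). Id2, a transcriptional inhibitor induced by BMPs, had 10.1, 8.85 and 8.34 CPM and 5.22, 7.11 and 5.64 CPM and changed by -0.63 (standard error 0.15). Of the other 10 that fell, named here after their values were seen, the receptors Tgfbr2 and Tgfbr3, the latent TGF-beta binding protein Ltbp1, the follistatins Fst and Fstl1, and Id3, a relative of Id2, had log2 fold changes of -0.175, -0.235, -0.265, -0.334, -0.263 and -0.417. These 6 kept the call whichever library was left out. The ligand Tgfb2 lost it without JMJD1A(WT) replicate 1 (edgeR adjusted p = 0.052) or LacZ replicate 1 (0.114), and the ligand Tgfb3 and the receptor Acvr2a lost it without any of 4 libraries each (up to 0.177 and 0.274). Grem1, a secreted BMP antagonist, was the member that rose, from 31.3, 28.1 and 29.2 CPM to 42.0, 39.7 and 46.6 CPM. The 12 became 8 to 11 when a library was left out, and the 1 that rose became 2 without JMJD1A(WT) replicate 2 or LacZ replicate 2 or 3. Tgfbi, a matrix protein induced by TGF-beta that is not in the list, fell from 258, 265 and 249 CPM to 178, 169 and 182 CPM, a log2 fold change of -0.54 (standard error 0.042, edgeR adjusted p = 6.07e-14).

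Of 30 Wnt pathway genes, 5 fell and 1 rose, with a median of -0.0788, and the increase was lost without JMJD1A(WT) replicate 1 or 3 or LacZ replicate 2 or 3. Ror1, a receptor for Wnt5a, fell from 17.7, 14.7 and 17.8 CPM to 10.1, 7.43 and 9.37 CPM, a log2 fold change of -0.88 (standard error 0.12, edgeR adjusted p = 5.46e-07). Lgr4, the receptor for R-spondins, had 236, 236 and 248 CPM and 191, 195 and 197 CPM and a log2 fold change of -0.30 (standard error 0.041). In the list of axon guidance and adhesion genes 10 of 33 fell and 4 rose (median -0.104). It holds the largest decrease at a mean of 5 CPM or more, that of Mdga1, a membrane-anchored adhesion protein. Mdga1 had 11.3, 13.4 and 16.9 CPM with LacZ and 6.03, 6.10 and 6.30 CPM with JMJD1A(WT), and its log2 fold change was -1.16 (standard error 0.15, edgeR adjusted p = 5.16e-08). Sema5a, a transmembrane semaphorin, fell from 131 ± 12.7 to 88.3 ± 3.33 CPM (SD, n = 3), while the secreted semaphorin Sema3f rose from 10.1 ± 1.43 to 15.8 ± 1.51 CPM (SD, n = 3).

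Matrix genes moved in both directions. Of 24 collagen chains, 6 rose and 2 fell (median 0.0442), and the summed level of the list was 59660 to 62200 CPM with LacZ and 59730 to 63180 CPM with JMJD1A(WT). Col1a1, the main chain of type I collagen, had 3732, 3602 and 3680 CPM and 3737, 3540 and 3704 CPM, with overlapping groups and no difference called (edgeR adjusted p = 0.969). Col11a1, a chain of the fibril-nucleating type XI collagen, had 284, 256 and 268 CPM and 486, 444 and 484 CPM and rose by 0.81 (standard error 0.041, edgeR adjusted p = 6.43e-20). Col18a1, a basement membrane chain that gives rise to endostatin, rose from 382 ± 18.6 to 574 ± 27.0 CPM (SD, n = 3), whereas Col8a1, a short-chain network collagen, fell from 46.9, 40.9 and 37.1 CPM to 26.7, 25.6 and 27.9 CPM. Of 42 other matrix genes, 10 rose and 10 fell (median 0.006). Nid2 of the basement membrane and Spon2, a secreted spondin, rose by 0.51 and 0.63, and Tnc (tenascin-C), Fbn1 (fibrillin-1) and Sparcl1 fell, with log2 fold changes of -0.44, -0.40 and -0.51.

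Among matrix proteases, several abundant members fell. Adamts1, a protease of aggrecan and versican, had 3806, 3688 and 3728 CPM with LacZ and 2847, 2824 and 2857 CPM with JMJD1A(WT), a drop many times the spread, and its log2 fold change was -0.40 (standard error 0.031, edgeR adjusted p = 1.07e-13). Mmp2, gelatinase A, had 4819, 4746 and 4804 CPM and 3911, 4023 and 3882 CPM, and Mmp14, the membrane protease that activates pro-MMP2, had 594, 590.3 and 575 CPM and 477, 458 and 478 CPM. Their log2 fold changes were -0.28 (standard error 0.029) and -0.32 (standard error 0.035). Groups without overlap were a condition of naming both. Adamts15, another aggrecanase, rose 3.16-fold, from 12.8 ± 0.996 to 41.2 ± 4.88 CPM (SD, n = 3). Of 28 genes in the list 5 rose and 4 fell (median -0.0177), and the 5 became 3 without JMJD1A(WT) replicate 1, LacZ replicate 2 or LacZ replicate 3.

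Of 27 contractile and SRF/YAP genes 7 fell and 2 rose (median -0.0435). Zyx (zyxin of focal adhesions) fell from 267, 274 and 266 CPM to 228, 214 and 235 CPM, and Cald1 (caldesmon, an actin-binding protein), had 949, 944 and 958 CPM and 825, 799 and 806 CPM. Mylk, the kinase of myosin light chain, rose instead, from 102, 81.8 and 87.8 CPM to 152, 151 and 153 CPM. Its log2 fold change was 0.75 (standard error 0.066, edgeR adjusted p = 1.48e-08).

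**Figure D3:**
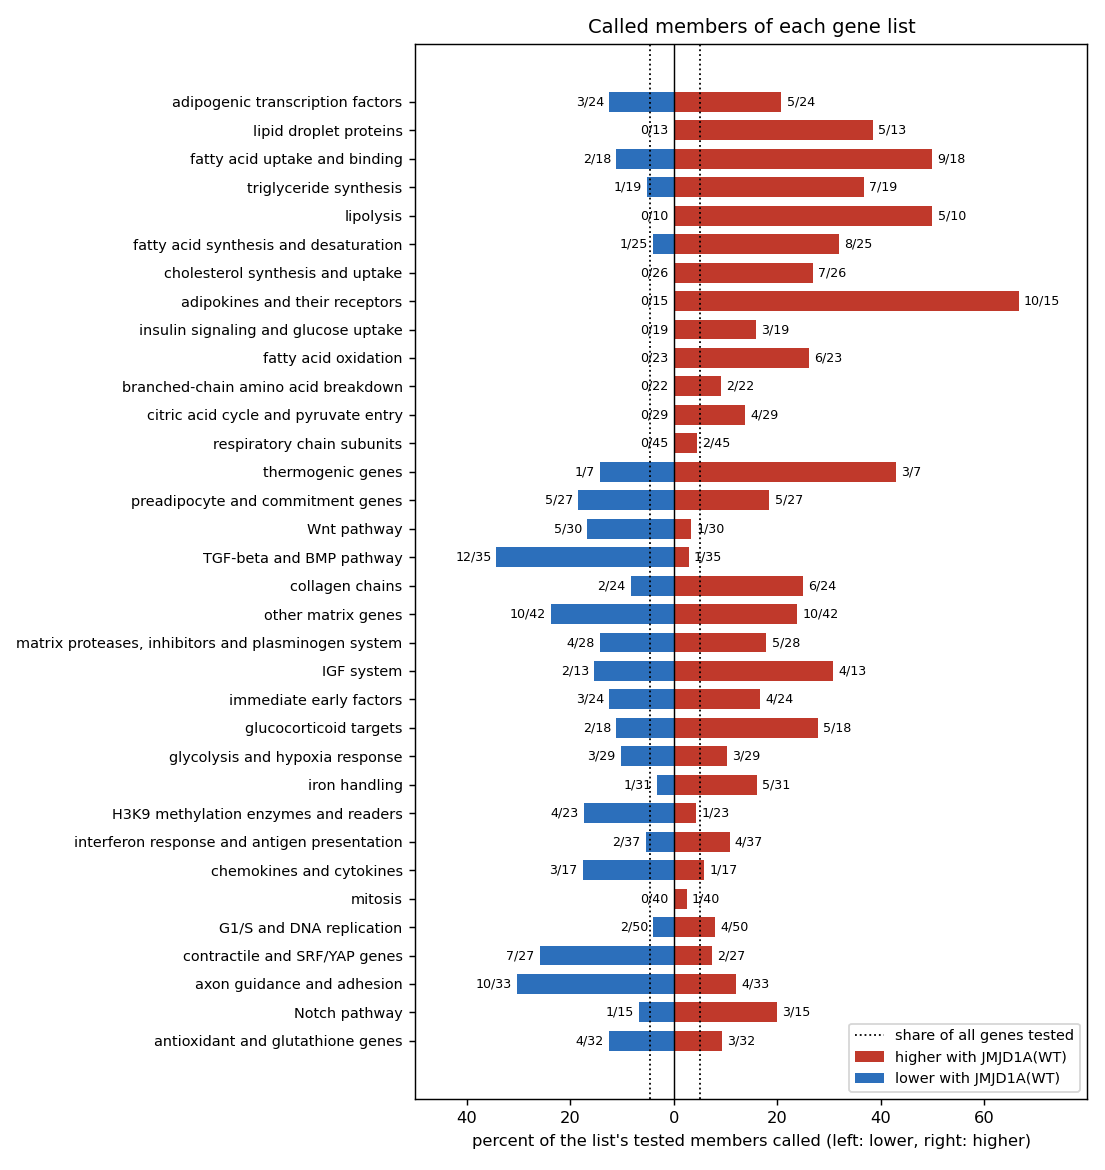
Bars give the percent of each list's tested members that were called higher (red, right) or lower (blue, left) with JMJD1A(WT), with the numbers printed at the bar ends and dotted lines at the shares of all genes tested, 4.98% and 4.52%. Lists of lipid handling and adipokines extend to the right, up to 10 of 15, and the TGF-beta and BMP, axon guidance and contractile lists extend to the left, up to 12 of 35.

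Setdb1, which writes methyl groups on the histone residue that JMJD1A clears, fell with JMJD1A(WT). It was measured at 197, 188 and 192 CPM with LacZ and 126, 129 and 129 CPM with JMJD1A(WT), and the libraries of each group were tightly clustered. The log2 fold change was -0.59 (standard error 0.043, edgeR adjusted p = 1.02e-14). Setdb1 lies at chr3:95127447-95161124 (minus strand) of mm9, where its exons overlap those of Lass2 (now Cers2) on the opposite strand. Atf7ip, which binds and stabilizes the SETDB1 protein, rose from 88.5, 79.7 and 76.3 CPM to 101, 94.9 and 98.5 CPM, a log2 fold change of 0.27 (standard error 0.056, edgeR adjusted p = 0.000609). Of 23 enzymes and readers of this mark, 4 fell and 1 rose (median -0.0507). The demethylases Kdm3b and Jmjd1c, the closest relatives of JMJD1A, fell near the threshold, with log2 fold changes of -0.19 (edgeR adjusted p = 0.0253) and -0.13 (edgeR adjusted p = 0.0456). Both lost the call by DESeq2. Kdm3b lost it without JMJD1A(WT) replicate 2 or 3 or LacZ replicate 1 or 3 (edgeR adjusted p up to 0.155), and Jmjd1c without any library other than LacZ replicate 2 (up to 0.187). The count of 4 became 1 without JMJD1A(WT) replicate 2 or 3 and without LacZ replicate 1 or 3, and 2 without JMJD1A(WT) replicate 1.

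Inflammatory and stress genes showed a few firm decreases. Casp4, an inflammatory caspase, had 56.4, 54.0 and 55.8 CPM with LacZ and 31.0, 29.9 and 32.3 CPM with JMJD1A(WT) and a log2 fold change of -0.82 (standard error 0.068, edgeR adjusted p = 5.22e-13). Casp12, its neighbour on chromosome 9 and a caspase of the same family, fell from 31.3, 33.2 and 35.5 CPM to 19.2, 21.7 and 21.1 CPM. Adh7, an alcohol dehydrogenase that oxidizes retinol, fell from 97.5, 98.1 and 94.6 CPM to 57.2, 54.9 and 54.1 CPM, and its log2 fold change was -0.81 (standard error 0.054, edgeR adjusted p = 4.48e-16). Nqo1, the quinone reductase induced by NRF2, fell from 60.1, 64.8 and 56.0 CPM to 41.7, 39.7 and 44.3 CPM. Chemokine and cytokine genes fell in 3 of 17 and rose in 1 (median -0.017; 2 without JMJD1A(WT) replicate 1 or 3), with Cxcl12, the ligand of CXCR4, at 1747, 1747 and 1771 CPM and 1477, 1547 and 1498 CPM. Of 37 interferon response and antigen presentation genes, 4 rose and 2 fell (median 0.134). The 4 became 2 without JMJD1A(WT) replicate 3, and the 2 became 1 without JMJD1A(WT) replicate 2 or LacZ replicate 2.

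Cell cycle genes are given beside the shares of all genes tested, 4.98% higher and 4.52% lower. In the mitosis list 2.5% rose and 0% fell, and in the G1/S and DNA replication list 8% rose and 4% fell. Of 40 mitosis genes 1 rose and none fell (median -0.0491), while 9 of the 40 had a positive fold change, and of 50 genes of G1/S control and DNA replication 4 rose and 2 fell (median -0.00743). The 1 mitosis gene became 0 without JMJD1A(WT) replicate 1 or LacZ replicate 3 and 2 without JMJD1A(WT) replicate 3, and 1 fell without JMJD1A(WT) replicate 2. The 2 decreases of the G1/S list became 4 without JMJD1A(WT) replicate 2 and 1 without JMJD1A(WT) replicate 1 or 3 or LacZ replicate 3. Cdk1, the mitotic kinase, had 86.2 ± 6.85 CPM with LacZ and 81.4 ± 4.14 CPM with JMJD1A(WT) (SD, n = 3), with overlapping groups. Ccnd2, a D-type cyclin, rose from 562, 542 and 533 CPM to 731, 716 and 731 CPM, a log2 fold change of 0.41 (standard error 0.036, edgeR adjusted p = 3.68e-12), and Cdkn1a, which encodes the inhibitor p21, rose by 0.30 (standard error 0.043). Glycolysis and hypoxia genes were divided, with 3 of 29 higher and 3 lower (median -0.0135), and these became 1 to 3 higher and 1 to 2 lower when a library was left out, 1 each without LacZ replicate 3. The increases were also 1 without JMJD1A(WT) replicate 2 or LacZ replicate 2, and the decreases 1 without JMJD1A(WT) replicate 3.

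The remaining lists are also given beside the shares of all genes tested, 4.98% higher and 4.52% lower. Of these lists, 5 of 18 glucocorticoid targets rose and 2 fell (median 0.0737), and 5 of 31 iron handling genes rose and 1 fell (median 0.0838). The 2 glucocorticoid decreases became 0 without JMJD1A(WT) replicate 3 or LacZ replicate 3 and 1 without JMJD1A(WT) replicate 2 or LacZ replicate 2, and the 1 iron decrease became 2 without LacZ replicate 1. Of 15 Notch pathway genes 3 rose and 1 fell (median 0.0154), and of 32 antioxidant genes 3 rose and 4 fell (median -0.0233). The shares were 20% and 6.67% for Notch and 9.38% and 12.5% for antioxidant genes, each from few genes. Hsd11b1, which regenerates active glucocorticoid, rose from 34.6, 29.5 and 35.6 CPM to 47.9, 57.3 and 48.2 CPM, and Trf, transferrin, from 4.33, 4.46 and 3.25 CPM to 8.30, 7.74 and 7.43 CPM. Notch1 rose from 129.6, 115 and 115 CPM to 172, 156 and 163 CPM while its ligand Jag1 fell from 131, 123 and 126 CPM to 100.1, 96.5 and 105 CPM. Tfrc, the transferrin receptor, had 152, 161 and 155 CPM and 161, 158 and 161 CPM and was not called (edgeR adjusted p = 0.694). Of 24 immediate early genes 4 rose and 3 fell (median 0.139), and the 4 became 2 without LacZ replicate 3, while the 3 became 2 to 4 when a library was left out. Egr1, an early growth response factor, had 75.4, 67.6 and 77.8 CPM and 116, 117 and 119 CPM and rose by 0.68 (standard error 0.053, edgeR adjusted p = 9.35e-14), whereas Jund, an AP-1 subunit, fell, its log2 fold change being -0.32 (standard error 0.052).

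The called genes were set beside their change in the knockdown itself, sh-Jmjd1a against sh-Empty cells, measured in 6 other libraries that share none with the rescue. The doses differ, since Kdm3a fell by a log2 fold change of -0.42 on knockdown and rose by 3.83 with JMJD1A(WT). Of the 597 genes that rose with JMJD1A(WT) and were tested in both sets, 336 (56.3%) were lower on knockdown, beside 23.8% of all 12202 genes tested in both, and 114 (19.1%) were higher, beside 22.4%. Of the 565 genes that fell, 296 (52.4%) were higher on knockdown and 98 (17.3%) were lower. The 98 became 60 without JMJD1A(WT) replicate 3. Seen from the knockdown, the 336 genes are 11.5% of its decreases and the 296 genes are 10.8% of its increases. Fabp4 and Igfbp4 had log2 fold changes of -1.87 and -1.42 on knockdown, and Cebpa of -1.35. Ren1 changed on knockdown by -0.40 and Agt by -2.84, so Agt moved more than Ren1 on knockdown and less on re-expression.

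Other genes went the same way on re-expression as on knockdown. Igfbp5 was higher in both, with a log2 fold change of 2.91 on knockdown beside 0.97 on re-expression, and Col11a1 was higher by 1.72 and 0.81. Egr1, Zfp423, Ctla2b (a cysteine protease inhibitor-like gene with the close paralog Ctla2a) and Pde2a (a phosphodiesterase of cAMP and cGMP) were likewise higher in both. Setdb1 was lower in both, with log2 fold changes of -0.42 on knockdown and -0.59 on re-expression (edgeR adjusted p = 1.61e-08 and 1.02e-14), and Cd24a had -0.76 and -0.84. Some lists had more calls on knockdown than on re-expression. On knockdown 39 of 45 respiratory chain subunits were lower, and 37 of 40 mitosis genes and 28 of 37 interferon genes were higher. Of all genes tested in both sets, 23.8% were lower and 22.4% higher on knockdown. With JMJD1A(WT) 2 respiratory chain subunits and 1 mitosis gene rose and none fell, while 4 interferon genes rose and 2 fell. The shares of all genes tested were 4.98% higher and 4.52% lower.

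**Figure D4:**
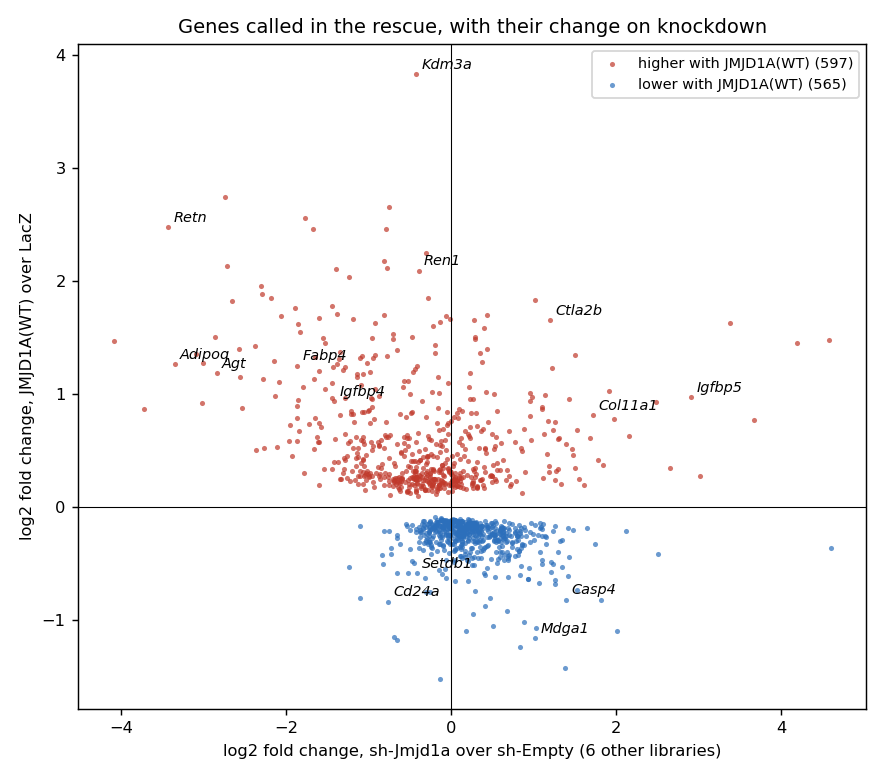
Genes called with JMJD1A(WT) and tested in both sets are placed by their log2 fold change in sh-Jmjd1a over sh-Empty cells (horizontal) and in JMJD1A(WT) over LacZ cells (vertical), red for the 597 that rose and blue for the 565 that fell. Most of the large increases lie in the upper left, as Retn and Agt do, while Igfbp5 and Col11a1 lie in the upper right and Setdb1 and Cd24a in the lower left.

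Promoters were searched for short motifs in the 250 bases before the RefSeq start (GRCm38.p6), on both strands, for the 9645 genes tested that matched an entry. A gene counts once if any of its listed starts has a match, so genes with more starts have more chances to match. The AP-1 site TGANTCA, bound by FOS and JUN, was found for 5.39% of all these genes, 9.38% of the 469 that rose and 6.21% of the 435 that fell. Of the 88 genes that rose by at least 1, 18.2% had it. The TATA box TATAAA was in 7.83% of all, 11.7% of the genes that rose and 9.89% of those that fell, and the GC box GGGCGG in 64.4%, 61.4% and 73.1%. Among the 88 genes that rose by at least 1, the GC box was found for 40.9%, the CCAAT box for 30.7% and the TATA box for 12.5%. The C/EBP pattern TTNCNNAA, which also covers the palindrome TTGCGCAA, was in 32% of all, 36.9% of those that rose and 32% of those that fell. The E-box CACGTG, bound by SREBP1 and ChREBP, was in 9.88%, 10% and 9.2%, the CCAAT box in 41.1%, 40.5% and 43.2%, and the cyclic AMP element TGACGTCA in 3.06%, 2.13% and 3.45%. The sterol element TCACNCCAC was in 1.17%, 1.71% and 1.61%, and the palindrome TTGCGCAA in 0.301% of all, 0 of the 469 and 3 of the 435. The PPAR element, a direct repeat of AGGTCA with a spacer of 1 base, was found for 5 of all 9645 genes and 1 of the 469. A match is a description of the letters and not evidence of binding, and these shares were not tested.

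Stretches around a match are shown for genes whose changes are described above, with the match in capitals and the strand of the gene read 5′ to 3′. Ren1 and Agt, the renin-angiotensin pair, and Cebpa each hold a TATA box within 30 bases of the start, at chr1:133350634-133350661 (plus strand), chr8:124569720-124569747 (minus strand) and chr7:35119252-35119279 (plus strand) of GRCm38.p6. Cidec and Ctla2b hold the AP-1 site at chr6:113434843-113434871 and chr13:60897573-60897601 (both minus strand), and Insig1 the E-box at chr5:28071300-28071327 (plus strand).
Ren1: tacatggtgtgTATAAAagaaggctcag
Agt: caccccttgagTATAAAtaagcctgctt
Cebpa: gcccgaccctcTATAAAagcggtccccg
Cidec: accaggaggtgTGACTCAcctcctgccag
Ctla2b: tgcttcctgtaTGACTCAgcctagtcctt
Insig1: ctgggtgaggtCACGTGgctccggtggc
The AP-1 sites of Cidec and Ctla2b share the core TGACTCA and lie 96 and 143 bases before the start.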

How the data were processed

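RNA-seq of 3T3-L1 cells on day 2 of differentiation was analysed, 3 libraries with LacZ and 3 with JMJD1A(WT) in the JMJD1A-KD background. The authors processed the reads with fastp, HISAT2 (mm9) and featureCounts and deposited raw counts per Entrez Gene number, with no normalization. The labels and the paper name different library kits, the latter directional, and the strand setting is not given in the sources used here. Symbols came from RefSeq (24191 of 26301 numbers matched, and numbers without a symbol held 0.500% of the counts) and mm9 positions from GENCODE M1.

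The model was edgeR 4.0.16 (R 4.3.3) on the counts of 9 libraries, the 6 compared and 3 of JMJD1A(H1122A), which share the estimate of spread. TMM scaling, filterByExpr with a minimum count of 10, robust dispersions and the quasi-likelihood F test with Benjamini-Hochberg adjustment at 0.05 were used. The knockdown set was fitted apart. The method was tested on simulated data. Replicates of these 9 libraries differed beyond sampling noise (chi-square per degree of freedom 2.37 to 4.89). Each library was treated as 1 replicate, although this check cannot tell separate cultures from technical repeats. Depth limits the precision of genes near the filter.

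Genes named are anchor genes of adipogenesis and of this enzyme, the 12 largest changes in each direction (called, mean of at least 5 CPM, groups without overlap), up to 3 called genes per direction of each list, the 5 largest per direction called alike on knockdown, and the 5 smallest adjusted p per direction. Others are marked in the text. The comparison, members, lists and rules were chosen with earlier results of these data known. The alternatives are given in the closing section. DESeq2 1.42.0 was among them. Some genes are not reported here.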

Additional observations from a re-analysis of the deposited data

How the results depend on the processing

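Direction was kept for every called gene named, under every alternative run, and 132 of 166 kept their call in all alternatives other than the stricter thresholds. Of 18 genes named beside the rule, 15 had the same outcome throughout these alternatives. Col1a1, not called, was -0.0219 to 0.0193 when a library was left out, with the sign changed without JMJD1A(WT) replicate 2 (0.019) and without LacZ replicate 1 (0.0051). An adjusted p under 0.01 left 426 genes higher and 307 lower. With the same threshold on knockdown, 163 of the genes that fell were higher and 52 lower there, and 66 genes were higher in both. A log2 fold change of at least 1 left 137 higher and 14 lower. With the same cutoff of 1 on knockdown, 53 of the higher genes were lower there and 7 were higher in both. Of the lower genes, 4 were higher on knockdown and 0 lower in both. These counts leave out genes called on knockdown with a smaller change, such as Ren1 (-0.40), so they are not on the scale of the main counts. DESeq2 called 464 higher (456 shared with edgeR) and 445 lower (436 shared), and 75 genes higher in both. Leaving out a library gave 482 to 613 higher and 379 to 541 lower genes, fewest without LacZ replicate 3, where 379 lower was under the 568 by about 1.5-fold. The genes higher and lower on knockdown were 270 to 336, the genes lower and higher on knockdown 216 to 316, those higher in both 83 to 117 and those lower in both 60 to 104, the last fewest without JMJD1A(WT) replicate 3. The log2 fold change of Kdm3a was 3.79 to 3.85. Leaving out knockdown libraries in turn was chosen after the data were seen. The replicate numbers did not pair the libraries (correlations of same-numbered libraries 0.0402, 0.0486 and -0.015), and with a replicate block 710 genes were higher and 683 lower, 362 and 331 of them opposite on knockdown and 130 and 116 alike, with no named gene losing its call and Fasn and Fos gaining one. The other settings (RLE size factors, no filter or 10 counts in every library, only the 6 libraries, all 15, legacy or not robust fits, thinned libraries, and without Kdm3a and the 20 most abundant genes) gave 560 to 660 higher and 508 to 611 lower genes. The causes were not tested. Low-level genes limit what can be called, since the median standard error of the lowest of 4 level bins was 0.266.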
